A study of Mus musculus with 13 samples.

Results

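Zfp618 is a mouse zinc finger gene on chromosome 4, and 12 of the 40691 regions of an H3K27ac map of macrophages belonged to it. The regions were taken by position: each overlapped Zfp618 or had it as the nearest protein-coding gene within 100 kb. The gene itself was chosen by a readout, since one of its regions had a very large difference between LPS with continuous IL-10 and LPS alone. The assay was H3K27ac chromatin immunoprecipitation followed by sequencing. The cells were bone marrow-derived macrophages, grown for 5 days in M-CSF conditioned medium from marrow of IL10-/-RAG2-/- animals of strain 129S6/SvEvTac. All groups carried both deletions, so no group made IL-10 of its own and the animals had no mature lymphocytes. The groups were LPS with IL-10 for the whole 195 min (continuous IL-10, IL-10 at 1 ng/mL), LPS for 195 min to which IL-10 was added for the final 30 min (late IL-10, its dose not given separately), LPS at 1 ng/mL for 195 min, and untreated cells. Each had 3 libraries from 3 independent macrophage pools, per the labels. No group had IL-10 without LPS, so a difference between an IL-10 group and untreated cells is that of LPS and IL-10 together. An input library was not used here. No age is given for the animals.

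H3K27ac, the acetylation of lysine 27 on histone H3, is found on active promoters and enhancers. IL-10 is a cytokine that restrains macrophage activation by LPS, a bacterial wall component read by Toll-like receptor 4, and it signals through its receptor, the kinases Jak1 and Tyk2 and the transcription factor STAT3. Zfp618 encodes a zinc finger protein whose human counterpart ZNF618 is known as a partner of UHRF2, a protein that reads 5-hydroxymethylcytosine in DNA. The measurements below concern the histone mark, and RNA of Zfp618 was not analysed here.

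Zfp618 (gene identifier 72701) lies on the plus strand at chr4:62965555-63139709 in GRCm38.p6, which is the mm10 build of the deposited table. Its regions are called Z1 to Z12 here, from upstream to downstream. Of the 12, 11 overlapped the gene and 9 lay wholly within it. Together they spanned 273.4 kb and covered 45.4% of that span. Widths ran from 689 to 32264 bp, against a median of 3062 bp over all regions. Z1 (chr4:62890135-62892178) lay 73377 bp upstream of the gene. Z2 (chr4:62964380-62970114) held the Zfp618 promoter. Z3 to Z6, from 689 to 3629 bp wide, lay between 37.5 and 76.0 kb downstream of the start site. Z7 (chr4:63042912-63064022), the region the gene was chosen by, began 77.3 kb downstream of the start site. Z8 (chr4:63068972-63101235), the widest, Z9 (chr4:63102049-63107070), Z10 (chr4:63107914-63109149) and Z11 (chr4:63110623-63130512) followed inside the gene. Z12 (chr4:63134179-63163574) covered the last 5531 bp of Zfp618, all 10898 bp of Ambp and 5627 bp of Kif12, so its signal cannot be given to 1 gene. Ambp encodes the precursor of alpha-1-microglobulin and bikunin, and Kif12 encodes a kinesin. Exons and introns within these regions were not annotated here.

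Both promoters that fall inside the regions are shown because they differ in base composition, and because Z2 lay at or near the floor without IL-10 while Z12 did not. The sequences are from RefSeq on GRCm38.p6, with CG dinucleotides in capitals. The Zfp618 promoter is chr4:62965317-62965616 on the plus strand, and the Ambp promoter is chr4:63154123-63154422 on the minus strand. Each is printed 5′ to 3′ along its gene.
Zfp618: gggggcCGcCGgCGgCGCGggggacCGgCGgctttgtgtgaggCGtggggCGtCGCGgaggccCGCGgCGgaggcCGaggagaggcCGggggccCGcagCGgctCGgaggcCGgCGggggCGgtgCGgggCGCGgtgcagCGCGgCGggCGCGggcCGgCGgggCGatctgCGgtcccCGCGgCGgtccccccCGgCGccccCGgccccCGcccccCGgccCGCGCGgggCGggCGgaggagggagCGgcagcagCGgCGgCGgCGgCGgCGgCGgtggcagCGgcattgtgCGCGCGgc
Ambp: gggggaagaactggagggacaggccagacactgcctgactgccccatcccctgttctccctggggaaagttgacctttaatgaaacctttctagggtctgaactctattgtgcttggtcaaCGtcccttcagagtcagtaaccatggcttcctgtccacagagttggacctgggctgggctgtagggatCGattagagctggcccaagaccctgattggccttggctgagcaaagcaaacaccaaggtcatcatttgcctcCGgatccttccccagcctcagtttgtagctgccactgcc
The Zfp618 promoter held 59 CG dinucleotides and was 88.0% G or C, more CG than 99.9% of 32851 RefSeq promoters of the same length, whose median was 7. The Ambp promoter held 3 CG dinucleotides and was 55.0% G or C, and 23.3% of promoters had fewer. Neither window held, on either strand, TTCNNNGAA (the STAT form, in 8.30% of promoters), TGANTCA (AP-1, 7.81%), GAGGAA (PU.1, 28.3%), GGANTTTCC (NF-kB, 1.25%) or GAAANNGAA (interferon response, 8.56%). That says only that these letters are not in these windows.

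The deposited value is a scaled signal in which 1 read was worth 0.419 to 1.97 depending on the library. No value lies below 1 read, so a region at 1 read is at the floor of the table and is not shown to be free of the mark. Folds against such a group are given as lower bounds, computed against 3 reads per library, and cover the deposited values only. In bulk chromatin, a mark in fewer cells and less of it per cell cannot be told apart. Total reads over all regions ranged from 5149730 to 26922552 per library, with the LPS and untreated groups holding the deepest libraries (replicate 3 of each). Of 8 macrophage marker genes, 8 had regions, and their summed signal was 38599 to 43822 with continuous IL-10, 32763 to 41367 with late IL-10, 35906 to 51132 with LPS and 38771 to 51535 in untreated cells. Of the neutrophil markers, Mpo had no region, and the sum over the other 3 genes was 1950 to 2315, 1211 to 1779, 1397 to 1867 and 662 to 1619 in the same group order. The T cell marker sum, with Cd3g lacking a region, was 300.1 to 410.3, 817 to 1386, 699 to 971 and 78.2 to 192.2. The B cell, fibroblast and dendritic cell marker sums were, in the same order of groups, 1806 to 2561, 2016 to 3067, 1552 to 2046 and 2509 to 3246 for B cells, 8477 to 17789, 7078 to 16466, 6095 to 13775 and 7251 to 9770 for fibroblasts, and 506.8 to 618.0, 322.5 to 428.7, 558.8 to 648.7 and 2409 to 3280 for dendritic cells. Their part in the results was not tested.

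H3K27ac signal was highest over the wide regions Z7, Z8, Z11 and Z12 in cells given IL-10 with LPS, in both schedules. In LPS-only and untreated cells the regions other than Z12 lay at 1 read, apart from 13 reads in Z2 and 55 in Z8 of LPS replicate 3 and 5 in Z7 of untreated replicate 3. The 55 reads are close to the median of 57 reads per region in that library, but Z8 is 32264 bp wide against a median of 3062 bp. Per kb, that library held 0.79 in Z8, while the median over all regions was 15.21 for the LPS means. Z12, at the 3′ end, carried signal in all 4 groups, and the small region Z10 alone carried none above 1 read with late IL-10.

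Only regions past a filter on low values, a mean log2 signal over all 12 libraries above the 10th percentile, were tested. This left 36621 regions, with 10 of the 12 among them and Z3 and Z10 out. Z1, Z4, Z5, Z6, Z9 and Z11 were at 1 read in all 6 libraries without IL-10, and Z2, Z7 and Z8 nearly so, so that these 9 passed through the IL-10 libraries. Their p-values and counts therefore describe how far the groups lie apart and are no independent support. The LPS and continuous IL-10 libraries chose the gene, so comparisons of its regions that use either group are likewise no independent support. The values without the filter, over all 40691 regions, are given for late IL-10 against untreated cells.

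In Z7 the deposited signal was 3480, 2172 and 2052 with continuous IL-10, against 1648, 1484 and 1449 in late IL-10 cells. The LPS libraries held 1.97, 1.68 and 0.464, each 1 read, and the untreated libraries held 0.707, 1.26 and 2.09, the last being 5 reads. All 6 IL-10 libraries thus lay far above all 6 libraries without it. With continuous IL-10 the mean of 2568 ± 792 (SD, n = 3) was at least 625-fold higher than in LPS cells, and with late IL-10 the mean of 1527 ± 107 was at least 371-fold higher. As the LPS and continuous IL-10 libraries chose this region, these are descriptions with no test. Late IL-10 against untreated cells compares neither of these groups, although all 12 libraries share 1 estimate of the spread. There the difference on the log2(value + 1) scale was 9.38 (SE 0.57, 95% interval 8.16 to 10.61, limma adjusted p = 2.81e-07). With only the 6 libraries of those 2 groups fitted, the adjusted p was 1.07e-04, and without the filter on low values it was 3.17e-07. Z7 ranked 598th of 40691 regions by mean signal with continuous IL-10 and 1550th with late IL-10.

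**Figure D1:**
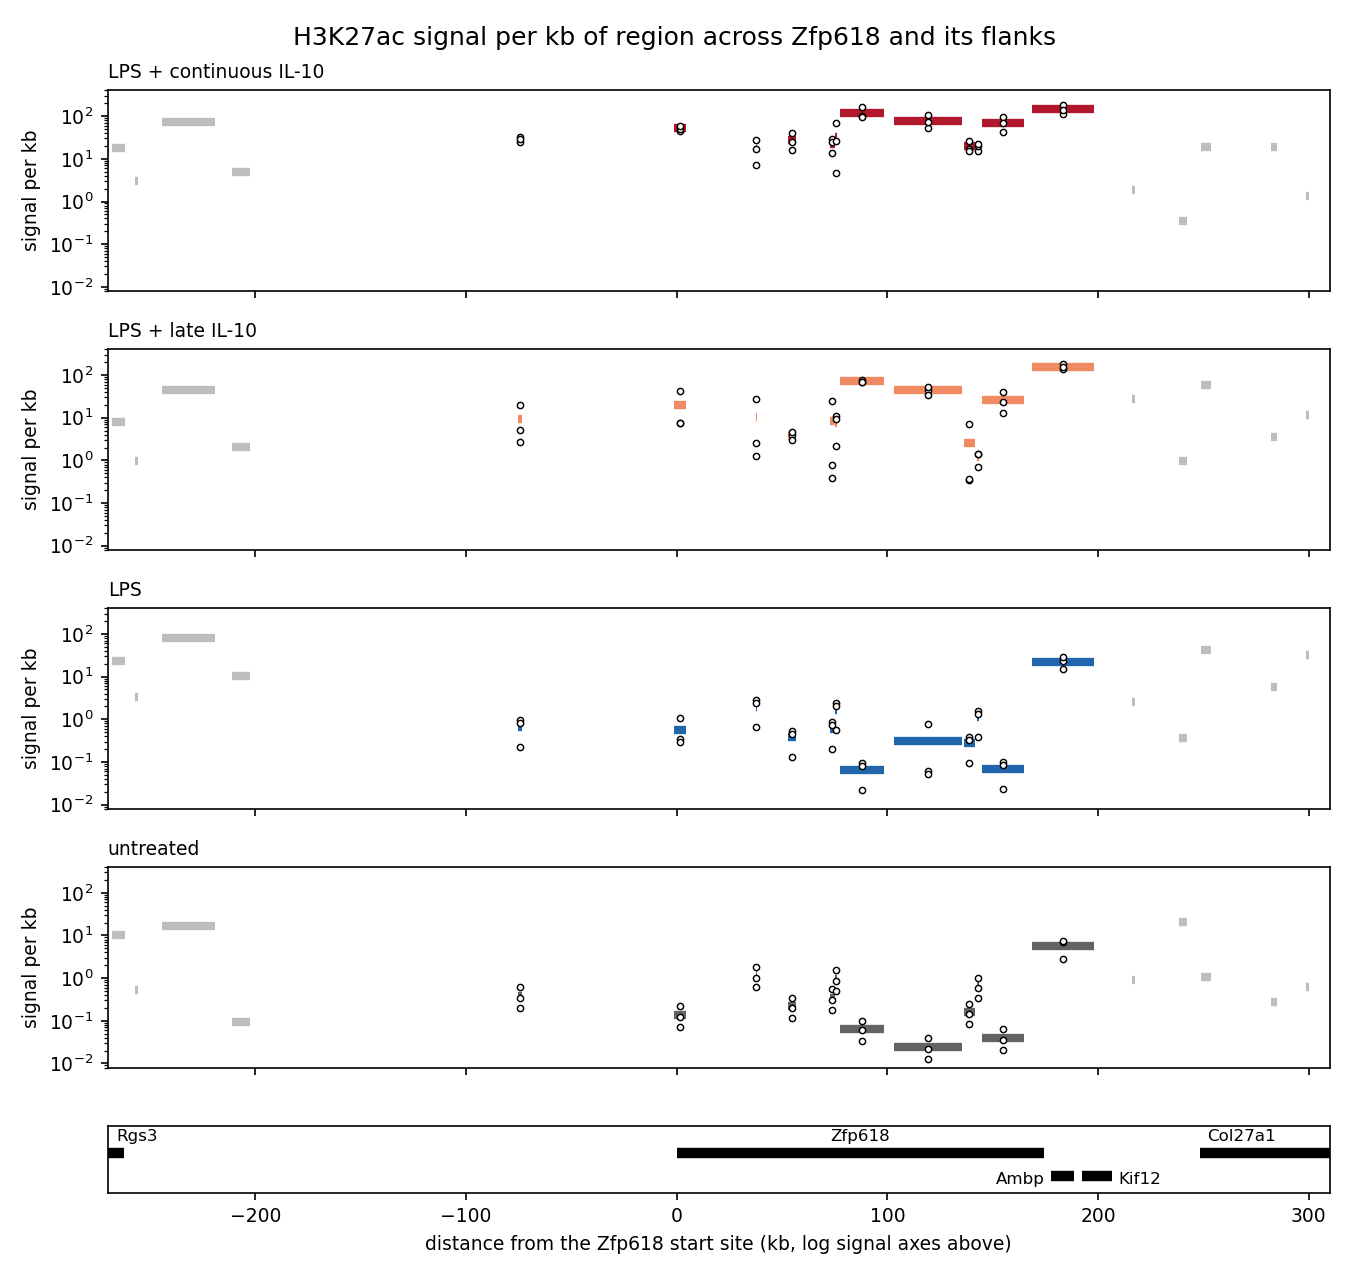
H3K27ac signal per kb of region (log axis) against distance from the Zfp618 start site in kb, with one panel per group. Coloured bars are group means of the 12 regions, open points the 3 libraries, grey bars the means of other regions, and black bars below are genes. The IL-10 panels carry signal through the gene body, while the LPS and untreated panels lie at the floor there, whose height per kb falls with region width, and carry signal in Z12, with a few more reads in Z2 and Z8 of LPS replicate 3 and in Z7 of untreated replicate 3.

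The next region, Z8, held 3435, 1750 and 2307 in continuous IL-10 cells and 1428, 1125 and 1680 in late IL-10 cells. LPS replicate 3 held 25.5, which is 55 reads, while the other LPS libraries and all untreated libraries lay at 1 read. Z8 rose with late IL-10 over untreated cells by 9.63 log2 units (SE 0.79, limma adjusted p = 3.66e-06, and 3.94e-06 without the filter), at least 591-fold in the means. Over LPS cells it rose by 7.87 (SE 0.79, adjusted p = 1.21e-04), a comparison that shares its LPS libraries with the one the gene was chosen on. With continuous IL-10 it rose over untreated cells by 10.41 (SE 0.79, adjusted p = 2.88e-06).

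Z11, toward the 3′ end of the gene, held 1888, 859 and 1395 in continuous IL-10 cells and 473.7, 258.0 and 788.3 in late IL-10 cells, and 1 read in each LPS and untreated library. No IL-10 library overlapped those without it. With LPS and late IL-10, Z11 was above untreated cells by 8.03 (SE 0.70, limma adjusted p = 5.36e-06, and 5.92e-06 without the filter), at least 212-fold. Late IL-10 raised it over LPS cells by 7.66 (SE 0.70, adjusted p = 7.09e-05), at least 123-fold. With LPS and continuous IL-10 it was above untreated cells by 9.54 (SE 0.70, adjusted p = 2.14e-06). The LPS and continuous IL-10 libraries are among those that chose the gene, so comparisons that use them are no support.

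At the promoter region Z2 the values were 258.0, 294.7 and 334.1 in continuous IL-10 cells, and 44.0, 43.0 and 248.9 in late IL-10 cells. LPS replicate 3 held 6.03 (13 reads), and the other LPS libraries and all untreated libraries lay at 1 read. The late IL-10 libraries were unequal: replicate 3, the deepest of them, was far above both others. The rise over untreated cells was 5.49 (SE 0.86, limma adjusted p = 3.24e-04, and 3.57e-04 without the filter) with late IL-10, at least 46.9-fold, and 7.39 (SE 0.86, adjusted p = 5.47e-05) with continuous IL-10, at least 124-fold. Over LPS cells, the rise with late IL-10 was 4.37 (SE 0.86, adjusted p = 0.0110), a call that was lost when only those 2 groups were fitted (adjusted p = 0.134). Leaving out late replicate 3 gave 4.66 over untreated cells.

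Z12 carried signal in every group. It held 5431, 3325 and 4110 with continuous IL-10, 5304, 4062 and 4590 with late IL-10, 688.7, 442.0 and 827.8 with LPS, and 84.8, 204.2 and 216.5 in untreated cells. The LPS libraries did not overlap the untreated ones, nor the IL-10 libraries the LPS ones. LPS alone raised it by 2.02 (SE 0.37, limma adjusted p = 0.00114) over untreated cells. Late IL-10 raised it by 2.87 (SE 0.37, adjusted p = 8.27e-04) over LPS cells. With LPS and late IL-10 it was above untreated cells by 4.89 (SE 0.37, adjusted p = 2.09e-06). With LPS and continuous IL-10 it was above untreated cells by 4.75 (SE 0.37, adjusted p = 3.90e-06), and above LPS cells by 2.73, given as a description. Z12 ranked 253rd, 328th, 3776th and 11971st of all regions with continuous IL-10, late IL-10, LPS and no treatment.

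The 5 wide or promoter regions can be compared per length. In continuous IL-10 cells the mean signal per kb was 145.9 in Z12, 121.7 in Z7, 77.4 in Z8, 69.4 in Z11 and 51.5 in Z2. In late IL-10 cells it was 158.3, 72.3, 43.7, 25.5 and 19.5 in the same order of regions. The order of the means was the same in both groups. The ranges of Z8 and Z11 over libraries overlapped in both groups, but Z8 was the higher of the pair within every IL-10 library. In late IL-10 cells the ranges of Z12, Z7 and Z8 did not overlap.

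**Figure D2:**
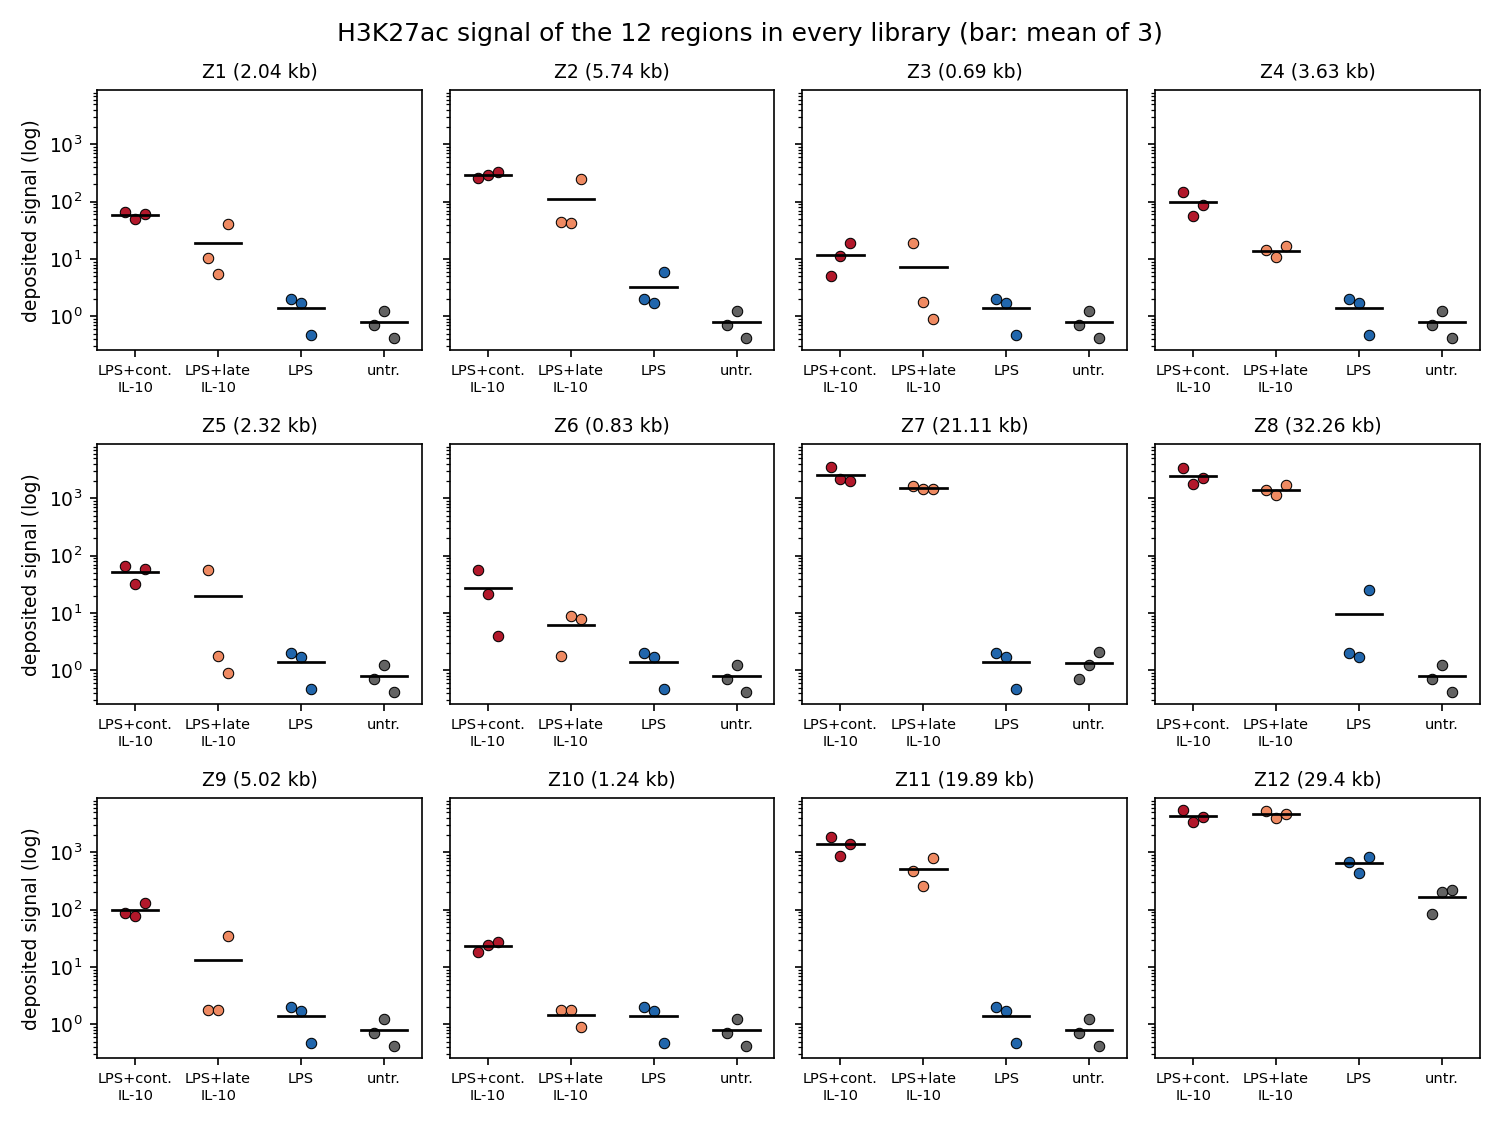
Deposited H3K27ac signal (log axis) of each of the 12 regions in every library, one panel per region with its width. Points are libraries, ordered continuous IL-10, late IL-10, LPS and untreated, and bars are means of 3. In Z7, Z8 and Z11 all 6 IL-10 libraries lie at 258 or more, and Z12 alone has 84.8 or more in all 12 libraries.

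The weaker regions rested on fewer reads, and not all had signal in both IL-10 schedules. Z4 held 148.4, 57.2 and 88.7 in continuous IL-10 cells and 14.1, 10.8 and 16.8 in late IL-10 cells, with 1 read in each of the other 6 libraries. Z1, upstream of the gene, held 67.4, 49.5 and 61.1 in continuous IL-10 cells and 10.6, 5.38 and 41.6 in late IL-10 cells. Z9 held 86.0, 78.8 and 129.1 with continuous IL-10, but 1 read in 2 of 3 late IL-10 libraries and 35.4 in replicate 3. Z1 and Z9 also lay at 1 read in every LPS and untreated library, so their IL-10 libraries, apart from those 2 at 1 read, were all higher than these.

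Z5 held 67.4, 31.8 and 58.2 in continuous IL-10 cells and 56.4, 1.79 and 0.886 in late IL-10 cells, the lower 2 being 1 read each. Z10 held 18.5, 24.1 and 27.6 with continuous IL-10 and 1 read in every other library, late IL-10 included. Z6 held 57.3, 21.6 and 3.94 in continuous IL-10 cells and 1.76, 8.96 and 7.97 in late IL-10 cells. Z3 held 5.06, 11.4 and 18.7 in continuous IL-10 cells and 19.4, 1.79 and 0.886 in late IL-10 cells, so its groups overlapped. A single library decided the late IL-10 mean of Z1, Z3, Z5 and Z9, which was replicate 1 in Z3 and Z5 and replicate 3 in Z1 and Z9.

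Between late IL-10 and untreated cells, 7 of the 10 rose and 0 fell, where 18.1% of all tested regions rose and 18.6% fell. Z1 was higher by 3.06 (SE 0.81, limma adjusted p = 0.00962, and 0.0106 without the filter) and Z4 by 3.06 (SE 0.73, adjusted p = 0.00525, and 0.00579 without it). Z5, Z6 and Z9 had differences of 1.93, 1.83 and 1.89 that did not pass (adjusted p = 0.179, 0.121 and 0.136), while edgeR on the recovered reads called Z5 and Z9 (adjusted p = 0.0259 and 0.0222). The median difference was 3.97 over the 10 and -0.11 over all tested regions.

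Between late IL-10 and LPS cells, 5 of the 10 rose (Z2, Z7, Z8, Z11 and Z12) and 0 fell, where 3.14% of all regions rose and 0.396% fell. Z7 is in that count as a description only. The LPS libraries are among those that chose the gene, so the count is no support. The median was 2.78 over the 10 and -0.12 over all. Z4, at 2.69 (SE 0.73), missed the threshold (limma adjusted p = 0.0639) and passed with the replicate number as a block (adjusted p = 0.0310). Z1, at 2.69 (SE 0.81), did not pass (adjusted p = 0.102). Between continuous IL-10 and untreated cells, 10 of 10 rose, where 11.0% of all regions rose, with medians of 5.74 over the 10 and -0.04 over all. Z7 is again counted as a description, and the continuous IL-10 libraries are among those that chose the gene. Over the whole table that comparison had 4029 regions higher and 4530 lower, and 5122 higher and 3520 lower after each library was centred on its median. Between continuous IL-10 and LPS, the contrast the gene was chosen on, 9 of the 10 were past the threshold upward, Z6 being the exception, where 3.28% of all regions were, and nothing is read from that count. The lower bounds for the mean with continuous IL-10 over LPS were 336-fold in Z11, 23.9-fold in Z4, 23.8-fold in Z9, 14.4-fold in Z1, 12.8-fold in Z5 and 5.70-fold in Z10. These comparisons share libraries.

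With LPS alone most of the locus stayed at the floor. Between LPS and untreated cells 1 of the 10, Z12, rose and 0 fell, where 16.5% of all regions rose and 17.9% fell. Z1, Z4, Z5, Z6, Z9 and Z11 were at 1 read in both groups, so their common difference of 0.36 is the difference in what 1 read is worth. Z8 had a difference of 1.76 (SE 0.79, limma adjusted p = 0.103), with 55 reads in LPS replicate 3, a library of 20884182 reads, and 1 read in the other 5 libraries. It passed with the replicate block (adjusted p = 0.0484) and by edgeR (adjusted p = 0.00573). Z7, counted among the 10, had a difference of -0.01, a description with no test.

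The late IL-10 mean was below the continuous one in 11 of the 12 regions, and limma called 1 of these differences. The mean with late IL-10 was 59.5% of that with continuous IL-10 in Z7, 56.5% in Z8, 36.7% in Z11, 37.9% in Z2, 32.3% in Z1, 14.2% in Z4, 13.3% in Z9 and 6.32% in Z10, and 108% in Z12. Several of these rest on late replicate 3: without it the mean was 14.7% in Z2, 13.4% in Z1 and 1.81% in Z9, and 26.5% in Z11, while it was 61.0% in Z7 and 51.1% in Z8. In 8 of the 12 regions every late IL-10 library lay below every continuous one, where 9.26% of all regions did so, and Z3, Z5, Z6 and Z12 overlapped. The 8 include Z7, and the gene was chosen partly by its high continuous IL-10 libraries. That count is therefore a description and no support. Of the 10 regions past the filter, 1 fell and 0 rose with late against continuous IL-10. Over all regions 0.852% fell and 1.86% rose. Z7 is among the 10 as a description. The one that fell was Z9, by 3.88 (SE 0.95, limma adjusted p = 0.0487), and edgeR did not call it (adjusted p = 0.180). Z10, which limma did not test, was called lower by edgeR (-3.91, adjusted p = 0.0389). Leaving out any one of 5 of the 6 libraries, all but late replicate 3, gave an adjusted p for Z9 between 0.0962 and 0.223. Z4, at -2.65 (SE 0.73), missed the threshold (adjusted p = 0.0689) and passed with the replicate block (adjusted p = 0.0266). The 95% interval of the difference was -2.49 to 0.92 in Z8, -3.03 to 0.00 in Z11 and -0.67 to 0.94 in Z12. In Z7, not tested here, the difference was -0.71. Intervals as wide as these do not show that the schedules act alike.

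**Figure D3:**
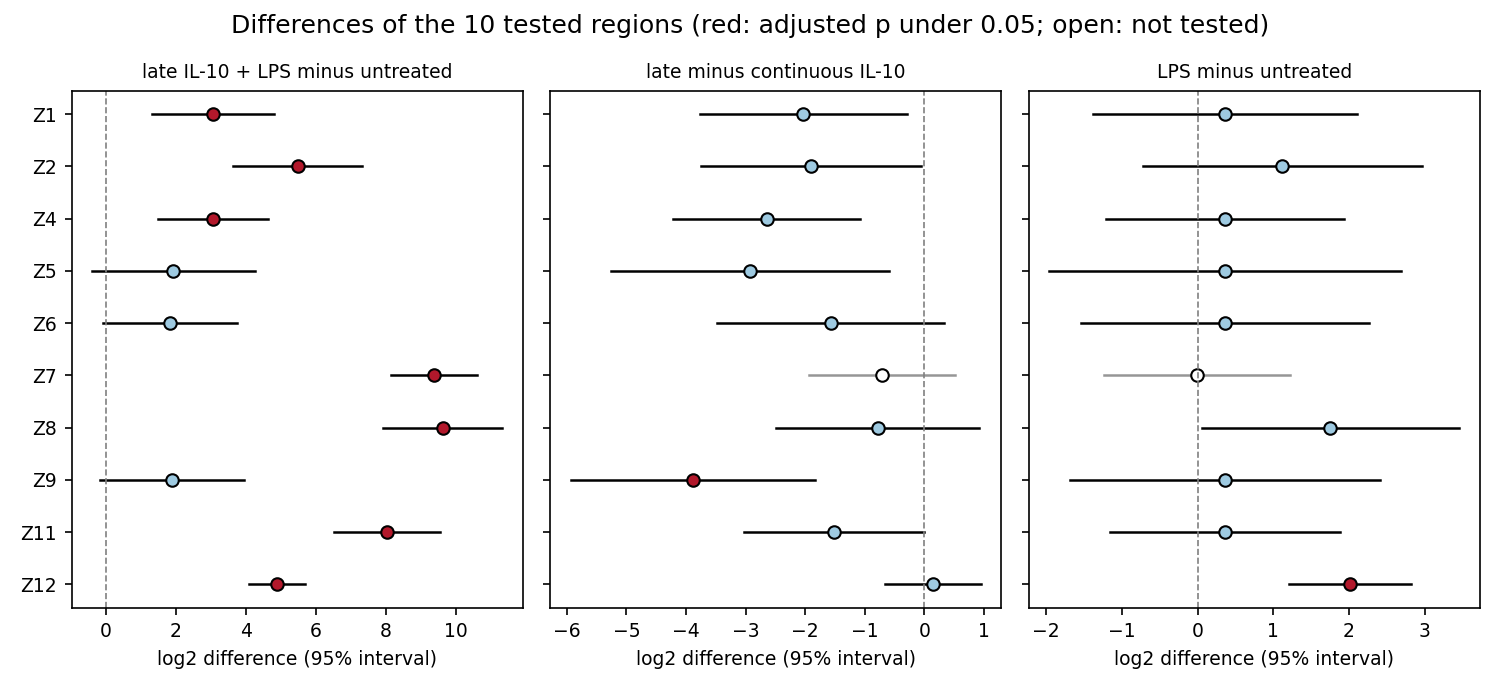
Differences in log2(value + 1), with 95% intervals from limma, for the 10 tested regions in 3 comparisons: late IL-10 minus untreated, late minus continuous IL-10, and LPS minus untreated. Red points have an adjusted p under 0.05 and open points, for Z7, are descriptions. All regions but Z12 passed the filter on low values through the IL-10 libraries. The first panel has 7 red points, the second has Z9 alone and the third has Z12 alone.

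Summed over the 12 regions, Zfp618 had 14943, 8676 and 10585 with continuous IL-10, 9004, 7004 and 8861 with late IL-10, 710.3, 460.4 and 863.5 with LPS, and 92.6, 218.1 and 222.7 in untreated cells. The groups with IL-10 lay above those without, and LPS lay above untreated cells. The sum was 5.63 higher (log2, SE 0.36, limma adjusted p = 5.57e-07 over 13482 genes) with late IL-10 than in untreated cells. Z12, shared with Ambp and Kif12, made up 36.3 to 38.8% of it with continuous IL-10, 51.8 to 58.9% with late IL-10, 95.9 to 97.0% with LPS and 91.6 to 97.2% in untreated cells. Without Z12 the sum was 7112 ± 2153, 3638 ± 667, 25.3 ± 9.2 and 9.31 ± 4.02 in the same order of groups (SD, n = 3 each). Outside Z12, the LPS libraries held 1 read in every region apart from 13 in Z2 and 55 in Z8 of replicate 3.

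The regions beside those of Zfp618 are given next. The nearest region upstream of Z1 that was no member, at chr4:62754492-62763141 and 202.4 kb from Zfp618, was nearest to Rgs3, a regulator of G protein signalling. It held 8.43, 33.0 and 87.7 with continuous IL-10, 1.76, 1.79 and 48.7 with late IL-10, 1.97, 68.9 and 193.4 with LPS, and 1 read in each untreated library. Late IL-10 replicates 1 and 2 and LPS replicate 1 were also at 1 read, so the groups were not apart. The nearest region downstream of Z12, at chr4:63181781-63182937 and 42.1 kb from Zfp618, was nearest to Kif12. It held 37.0, 34.0 and 24.8 with late IL-10, against 1.69, 3.81 and 0.986 with continuous IL-10, 1.97, 1.68 and 5.10 with LPS, and 0.707, 1.26 and 1.26 in untreated cells. Of the libraries without late IL-10, LPS replicate 3 alone was over 3 reads, with 11. The region rose with late IL-10 by 3.16 (SE 0.66, limma adjusted p = 0.0152) over LPS cells and by 3.46 (SE 0.66, adjusted p = 0.0178) over continuous IL-10.

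Within 500 kb of Zfp618 there were 40 other regions, of which 37 were tested. With late IL-10 over LPS, 1 of the 37 rose (the Kif12 region above) and 0 fell, with a median of -0.51. Of all regions 3.14% rose, a share near that of the 37, and 0.396% fell. With continuous IL-10 over LPS, 0 rose and 1 fell by limma, with a median of 0.02, where 3.28% of all regions rose and 3.24% fell. The one that fell was in Col27a1, a fibrillar collagen gene (-3.73, SE 0.89, adjusted p = 0.0255). The range over the 37 was -3.73 to 2.08. The 10 regions of Zfp618 ran from 2.73 to 10.10 in that contrast, which is the one the gene was chosen on, so nothing is read from their place above the others. By gene sums, Rgs3 was 0.02 (adjusted p = 0.993) with continuous IL-10 over LPS and -0.77 (adjusted p = 0.335) with late IL-10 over LPS, at 2794 ± 401, 1693 ± 718, 2862 ± 1042 and 1325 ± 264 with continuous IL-10, late IL-10, LPS and no treatment. Col27a1 was -0.60 (adjusted p = 0.605) and 0.58 (adjusted p = 0.795) in those 2 comparisons, and rose with late IL-10 over untreated cells by 1.82 (SE 0.46, adjusted p = 0.00888). Orm1, further downstream, and 4933430I17Rik, Pole3 and Alad, further upstream, did not pass in either comparison of IL-10 with LPS. Ambp and Kif12 carry the values of Z12, which is 1 of 1 and 1 of 2 of their regions.

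**Figure D4:**
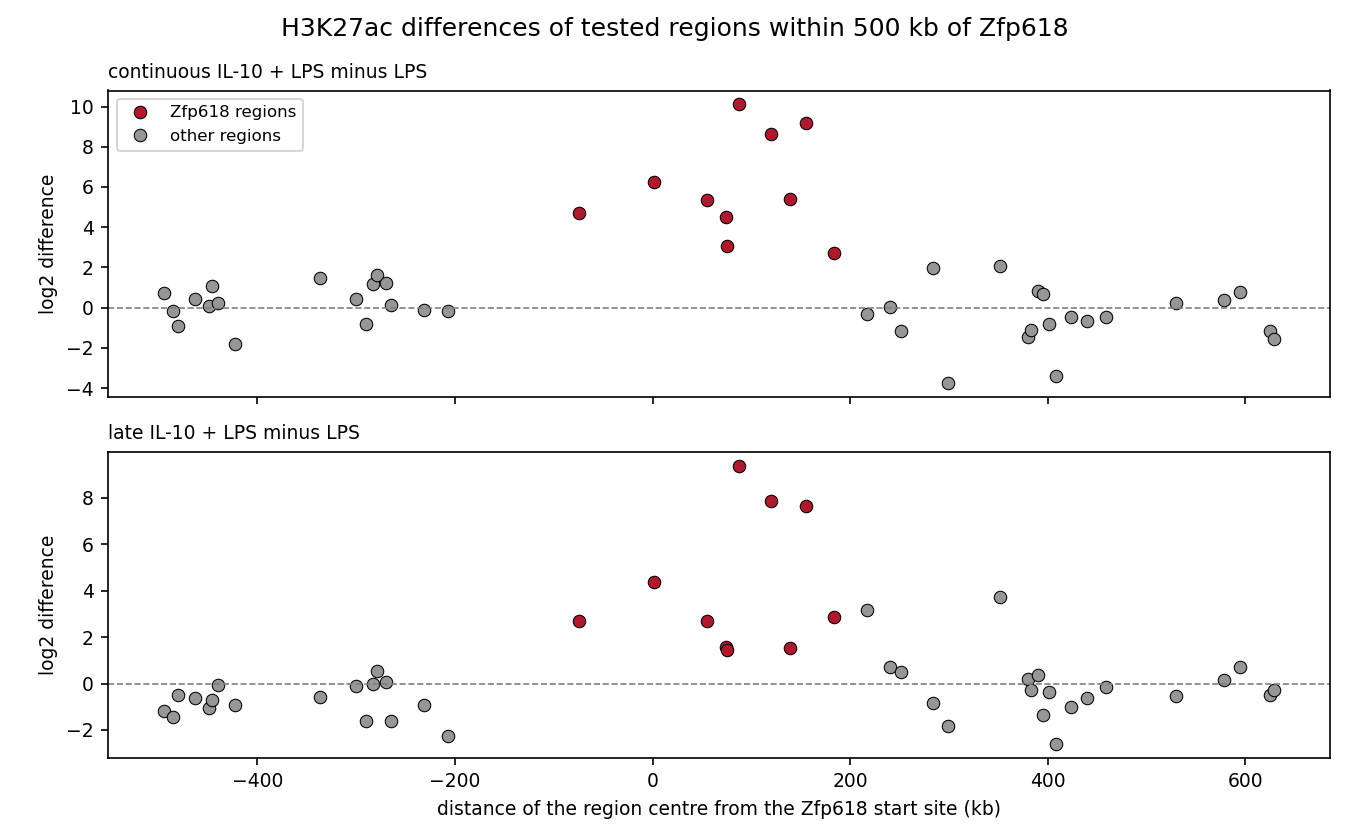
Log2 differences of the tested regions within 500 kb of Zfp618 against distance of the region centre from the Zfp618 start site in kb, for continuous IL-10 minus LPS (top) and late IL-10 minus LPS (bottom). Red points are the 10 tested Zfp618 regions and grey points the 37 others. The Zfp618 regions run from 2.73 to 10.10 in the top panel, above the others, which end at 2.08, but the gene was chosen on that contrast and the panel is a description. In the bottom panel 2 grey points, at 3.16 and 3.72, lie among the red ones.

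A region with no more than 3 reads in every library without IL-10 and more than 3 in every library with it was uncommon: 89 of 40691, or 0.219%, were of this kind, against 19 with the reverse layout. Z4 and Z11 were 2 of them, and Z11 had the highest mean IL-10 signal of the 89, at 944. The next were in Srgap3 at 731, over Acat2 and Acat3 at 551, in Accsl at 424.5, in Nos2 at 411 and in Steap4 at 361.2. Nos2 encodes inducible nitric oxide synthase, and Acat2 an acetyl-CoA acetyltransferase. Z7 was not among the 89 because of the 5 reads of untreated replicate 3, nor Z8 because of the 55 reads of LPS replicate 3. Z10 was 1 of 16 regions seen over 3 reads in every continuous IL-10 library and in no other.

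Likeness to Z7 was measured by the Pearson correlation of log2(value + 1) over the 12 libraries, which share their scaling and floor, and is a description. Outside the gene the 10 most alike regions ran from r = 0.984 to 0.996. Highest was a region over Acat2 and Acat3 (chr17:12934831-12945831), with means of 576.9, 525.4, 1.37 and 0.795 with continuous IL-10, late IL-10, LPS and no treatment. Next was a region 22647 bp from Il4ra (chr7:125521170-125529624), at 209.5, 114.0, 1.37 and 0.795. Il4ra encodes the IL-4 receptor alpha chain, and it is also in the IL-10 list below. The others were nearest to or in Rnft1, Snx32, Serpine3, Kcnj2, Dhrs2, Nav3, Kif2c and Jazf1. Within the gene, r was 0.992 for Z11, 0.967 for Z8, 0.944 for Z2, 0.922 for Z4, 0.918 for Z12 and 0.913 for Z1, and 0.788, 0.766 and 0.749 for Z6, Z9 and Z5.

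IL-10 pathway and target genes were measured beside the locus. Of 21 such genes, summed over their regions, 9 rose and 0 fell with late IL-10 over LPS, where 3.19% of all genes rose and 0.260% fell. Their median was 1.12, against -0.16 over all genes. The largest were Nfil3, a transcription repressor (2.26, limma adjusted p = 3.49e-04), Etv3, an ETS family repressor (1.91, adjusted p = 4.63e-04), Bcl3, an atypical inhibitor of NF-kB (1.87, adjusted p = 8.13e-04), and Il4ra (1.59, adjusted p = 4.84e-04). With continuous IL-10 over LPS, 5 rose and 1 fell, where 2.59% of all genes rose and 3.17% fell, and the median was 0.58 against 0.03. Arg1, which encodes arginase (2.96, adjusted p = 2.28e-04), and Nfil3 (1.22, adjusted p = 0.0164) rose most, and Tyk2 fell (-1.89, adjusted p = 8.13e-04). The Zfp618 sum was 3.65 with late and 4.08 with continuous IL-10 over LPS, given as a description. Il10ra, the ligand-binding receptor chain, was -0.07 (adjusted p = 0.984) with late and -0.32 (adjusted p = 0.420) with continuous IL-10 over LPS. Stat3 was 0.51 (adjusted p = 0.510) with late and -0.18 (adjusted p = 0.852) with continuous IL-10 over LPS.

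Genes that write, erase or read DNA methylation form the group to which the known partner of ZNF618 belongs. Of 12, 1 rose and 0 fell with late IL-10 over LPS, where 3.19% of all genes rose and 0.260% fell. It was Tet2, an oxidase of 5-methylcytosine (1.26, limma adjusted p = 0.0227), with mean sums of 12425 with late IL-10 and 5333 with LPS. With continuous IL-10 over LPS, 0 rose and 0 fell by limma, where 2.59% of all genes rose and 3.17% fell, with medians of -0.12 for the 12 and 0.03 over all genes. Uhrf2 was 0.09 (adjusted p = 0.986) with late and -0.08 (adjusted p = 0.961) with continuous IL-10 over LPS, at 744.8, 843.1, 808.9 and 1157 with continuous IL-10, late IL-10, LPS and no treatment. Of the markers, 0 of 8 macrophage genes passed in either of these comparisons, against the same shares of all genes, and 0 of the T cell, B cell and fibroblast markers passed. Zbtb46, a dendritic cell transcription factor, fell with continuous IL-10 over LPS (-1.52, SE 0.33, adjusted p = 0.0167) and was -0.73 (adjusted p = 0.375) with late IL-10 over LPS. Elane, a neutrophil elastase gene whose region is shared with its neighbours Prtn3 and Cfd, rose in both (4.91, adjusted p = 0.0198, with continuous and 5.02, adjusted p = 0.0201, with late IL-10), at mean sums of 309.7 with continuous IL-10, 328.0 with late IL-10, 26.3 with LPS and 819 in untreated cells, so it was highest in untreated cells, where Zfp618 was lowest. The other neutrophil markers did not pass: Camp was -0.10 with continuous and -0.64 with late IL-10 over LPS, and S100a8 was 1.87 and 1.01. Between late IL-10 and untreated cells more markers passed by limma, where 15.7% of all genes rose and 15.4% fell. Of the macrophage markers 1 of 8 rose and 4 fell, and 4 of 4 T cell markers rose. Of 3 fibroblast markers Dcn rose (9.73, mean sums of 9150 and 8.43) and Pdgfrb fell (-1.11). Of 3 neutrophil markers Camp rose (6.93). Of 3 dendritic cell markers Flt3 (-6.52) and Siglech (-4.94) fell, and 0 of 3 B cell markers passed. Most of these also passed by limma with LPS alone over untreated cells, where 14.2% of all genes rose and 13.3% fell. There 4 of 4 T cell markers, Dcn (8.43) and Camp (7.57) rose, and Pdgfrb (-0.69), Flt3 (-7.27) and Siglech (-3.16) fell. Of the macrophage markers 1 of 8 rose and 3 fell there. Elane (-6.55) fell and Zbtb46 (1.32) rose there too, but neither passed between late IL-10 and untreated cells. The part of these markers in the results was not tested.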

How the data were processed

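H3K27ac ChIP-seq signal was taken from 1 table of 40691 consensus regions that the authors deposited for 12 libraries. The submitters' processing notes name DiffBind, MACS2, Bowtie2 and Trim Galore with mm10. How each tool was run, its version, and whether input was subtracted was not given in the sources used here. As deposited, the signal is whole reads times 1 factor per library: 100% of values were whole multiples of the library's smallest value, within 0.0001. Median reads per region were 18 to 89, and 19.7 to 29.9% of regions lay at 1 read.

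The main test was limma 3.58.1 (R 4.3.3; trend, robust) on log2(value + 1) over all 12 libraries with group as the only term, Benjamini-Hochberg over all regions, at adjusted p under 0.05. Pseudocount 1 understates the change of weak regions. The fits were tested on simulated data. edgeR 4.0.16 (quasi-likelihood, TMM) on recovered reads was an alternative. Regions were given to protein-coding genes of RefSeq by overlap or as nearest within 100 kb, and gene sums add all such regions. Promoters run from 250 bases before to 50 after the start.

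Same-numbered libraries deviated together (18 pairs, r from 0.0993 to 0.712, over 0.1 in 17; other pairs -0.584 to 0.371). Replicate 3 was the deepest library of every group, and its pairs had r from 0.378 to 0.712. The part of depth in this agreement was not tested. With the labels naming 3 pools, numbers were taken to pair the samples except between continuous IL-10 and untreated cells. Between those groups r was 0.0993, 0.167 and 0.378, and the labels give no reason for the exception. It rests on the value of 0.0993, just under 0.1, and pools shared in the other comparisons would pair these groups too. The main fits have no term for the pool, so their p-values, calls and shares leave this pairing out. Fits with the replicate block are the alternative that uses it. Every member region is described; alike regions, neighbours and up to 4 passing genes per list were named by fixed rules. The members and lists were chosen with earlier results of these data known. p-values measure the spread between 3 libraries a group, and 0 columns belonged to other samples.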

Additional observations from a re-analysis of the deposited data

How the results depend on the processing

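Over all alternatives, 596 values of single regions and 66 of the gene sum kept direction and side of the threshold, 11 passed only under the alternative, 16 no longer passed and 5 reversed. The regions called higher with LPS over untreated were 1, and 2 with the replicate block and with edgeR. The regions called lower with late than continuous IL-10 were 1, and 2 with pseudocount 8 or the replicate block, 0 with only the 2 groups fitted, and 0 to 2 when 1 library was left out. By edgeR the region called was Z10 and not Z9. The reversals were small: Z7 between LPS and untreated cells was -0.01, but 0.0017 with pseudocount 8, 0.22 with median centring and -0.22 to 0.30 when 1 library was left out (positive without replicate 3 of untreated cells, at 0.21, or of LPS cells). Z12 between late and continuous IL-10 was 0.14, and -0.031 to 0.32 when 1 library was left out, negative without continuous replicate 2. The cause was not tested.

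The replicate block also called Z6 with continuous IL-10 over LPS (adjusted p = 0.0242), and, beside the calls named with the results, changed no other call of a region, including those between continuous IL-10 and untreated cells. Between those groups the numbers were not taken as pairs. Over the whole table the block gave more calls: 2719 higher with continuous IL-10 over LPS against 1201, 2258 with late IL-10 over LPS against 1149, 6226 with continuous IL-10 over untreated against 4029, and, with late over continuous IL-10, 2936 higher and 1818 lower against 680 and 312. With only the 2 groups fitted, 396 and 335 regions rose with continuous and late IL-10 over LPS, and 121 fell with late against continuous IL-10 (202 by edgeR). Leaving out 1 library gave 575 to 1749 higher with continuous IL-10 over LPS, 578 to 1127 with late IL-10 over LPS, and 40 to 1412 higher and 15 to 875 lower with late against continuous IL-10. Median centring shifted all differences by 0.35 (continuous IL-10 minus untreated), 0.23 (late IL-10 minus untreated), 0.24 (LPS minus untreated), 0.11 (continuous IL-10 minus LPS), -0.01 (late IL-10 minus LPS) and -0.12 (late minus continuous IL-10), all smaller than the called differences of the locus.

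The floor limits the locus: in LPS and untreated cells the regions other than Z12 rest on 1 read in nearly every library, so the size of a fold there depends on the floor and the pseudocount. Late IL-10 values of Z3, Z5, Z6 and Z9 rest on 1 to 40 reads.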
